A study of Solanum tuberosum with 6 samples.

Results

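The 10 genes described here are the identifiers that the study assigned to 4CL (4-coumarate:CoA ligase) among its cold-responsive genes of flavonoid-related metabolism, and they are 10 of the 114281 genes in the count table. The study picked them from genes that differed between cold and 25°C in the potato cultivars Atlantic or KY140. The cold responses of these 2 cultivars are therefore given as a description, without tests. The libraries of the third cultivar, KY130, took no part in that choice, and its cold response was tested. Other 4CL genes of the table are not analysed here, since the identifiers carry no descriptions.

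The samples were leaves of virus-free potato seedlings from tissue culture, grown on MS medium and labelled as wild type. Untreated plants were kept at 25°C and cold-stressed plants (CS) at −4°C for 12 h, which gave the groups Atlantic, CS-Atlantic, KY130, CS-KY130, KY140 and CS-KY140, each with 3 replicate libraries. The study describes Atlantic as resistant and KY140 as sensitive to cold, and the sources used here do not rate KY130. The temperature of −4°C is that of the sample titles, and the treatment entry of the labels holds a different one. Each group is 1 sample record with 3 numbered columns, which the study's methods call biological replicates, and it is not stated whether each replicate had its own cold exposure.

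4CL joins coenzyme A to p-coumaric acid and related hydroxycinnamic acids. The resulting thioesters are the branch point from which plants make lignin monomers, flavonoids and other soluble phenolics. In Arabidopsis, some 4CL isoforms serve mainly lignin synthesis and another mainly flavonoid synthesis. The sources used here do not say which role each potato copy has.

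By the naming scheme of the Atlantic annotation, the first number of an identifier is the chromosome and the digit before the letter G the chromosome copy. Of the 10 copies, 7 lie on chromosome 3, 2 on chromosome 11 and 1 on chromosome 1. The gene that the study names St4CL is Soltu.Atl.03_3G030960, on copy 3 of chromosome 3. Which identifiers are alleles of one gene is not given in the files. Copies with near-identical sequence may share reads, which makes the level of any single copy uncertain. The reads of all cultivars carry identifiers of the Atlantic annotation, so for KY130 and KY140 a low count of a copy and an allele with another sequence cannot be told apart.

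The 18 libraries held 11047494 to 14971945 counts, of which 1902 to 8816 belonged to the 10 copies. Genes with at least 1 count numbered 45305 to 74628, fewest in KY140 replicate 1 and CS-KY130 replicate 1. Pearson's r of log2(CPM + 1) across genes was lowest among the replicates of KY140 (0.839 to 0.911) and CS-KY130 (0.859 to 0.9), and reached 0.911 to 0.946 in the other groups. Identifiers without names allowed no check of leaf markers.

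In all 3 cultivars, the summed expression of the 10 copies was higher after cold in every library than in any untreated library of the same cultivar. Expression is given in CPM, the count of a gene relative to the library's total after TMM scaling over the 18 libraries, and it is not corrected for gene length. At 25°C the sum was 189, 151 and 219 CPM in Atlantic, 210.1, 177 and 205 CPM in KY130, and 149.6, 209 and 161 CPM in KY140. These untreated ranges overlapped. After cold it was 607, 729 and 561 CPM in CS-Atlantic, 406, 375 and 309 CPM in CS-KY130, and 407, 394 and 741 CPM in CS-KY140. The CS-Atlantic libraries lay above all CS-KY130 libraries, while CS-KY140 overlapped both, with replicate 3 far above the other two. The group means correspond to a 3.4-fold difference in Atlantic, 1.84-fold in KY130 and 2.97-fold in KY140. The copies were chosen on the cold responses of Atlantic and KY140, so that choice favoured a higher sum after cold there. The differences and treated levels of these 2 cultivars are a description and cannot be ranked against those of KY130. In leaf RNA, more cells with a transcript and more transcript per cell cannot be told apart.

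**Figure D1:**
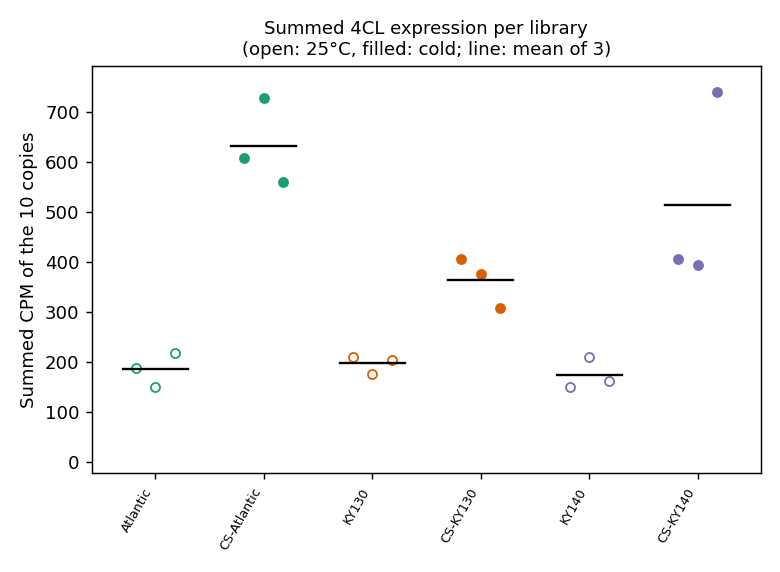
Summed CPM of the 10 4CL copies (y axis, linear) in each of 18 libraries, by group (x axis). Open points are libraries at 25°C, filled points are cold-stressed libraries and lines are means of 3. The untreated libraries sit between 149.6 and 219 CPM, and the cold-stressed ones between 309 and 741 CPM.

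At 25°C, the same copy held the largest mean share of the 4CL counts in each cultivar. Soltu.Atl.11_1G014950 accounted for 41.9 ± 1.25% of the counts of the 10 copies in Atlantic (SD, n = 3), 45.4 ± 11.5% in KY130 and 41.7 ± 6.68% in KY140. It was ahead in every untreated library but KY130 replicate 2, where it held 32.4% and the other chromosome 11 copy, Soltu.Atl.11_3G016410, held 34.6%. By its mean, Soltu.Atl.11_3G016410 came second in KY130 with 22.7 ± 10.5% and in Atlantic with 10.3 ± 4.16%, and it held 9.12 ± 3.80% in KY140. In KY140 the second by its mean was Soltu.Atl.03_3G023870 with 16.5 ± 4.47%, a copy that held 6.37 ± 1.51% in Atlantic and 0.587 ± 0.513% in KY130. In Atlantic, 8 copies each held between 4.05% and 10.3%, and no chromosome 3 copy stood apart from the others. Soltu.Atl.01_1G002190 had 0 counts in every untreated library of Atlantic and KY140.

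After cold, the chromosome 3 copies held a larger share of the 4CL counts in Atlantic and KY140. In Atlantic, the 7 chromosome 3 copies together held 44.1 to 51.8% of the 4CL counts in untreated libraries and 68.0 to 70.8% in cold-stressed ones, with no overlap. In KY140 these ranges were 46.2 to 53.1% and 53.9 to 61.8%, also without overlap. In KY130 they were 30.7 to 33.0% and 29.9 to 53.5%, where CS-KY130 replicate 3 had the lowest value of the treated group and lay below all untreated libraries. The mean share of Soltu.Atl.03_3G023870 went from 6.37% to 4.31% in Atlantic and from 16.5% to 8.03% in KY140. That of Soltu.Atl.03_3G000240 went from 4.05% to 3.16% and from 8.84% to 7.21%. Soltu.Atl.03_4G013030 was lower in Atlantic (6.73% to 5.22%) and Soltu.Atl.03_2G017380 in KY140 (8.77% to 4.34%). In each of these 2 cultivars the other chromosome 3 copies had a higher mean share after cold. Soltu.Atl.11_1G014950 kept first place in CS-Atlantic with 23.4 ± 1.56% and in CS-KY140 with 36.0 ± 5.87%. In CS-KY130 the order of the 2 chromosome 11 copies differed between libraries. Soltu.Atl.11_3G016410 held 28.4, 33.6 and 23.8% in replicates 1 to 3, and Soltu.Atl.11_1G014950 held 16.0, 20.4 and 46.0%, so that the second was ahead only in replicate 3.

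**Figure D2:**
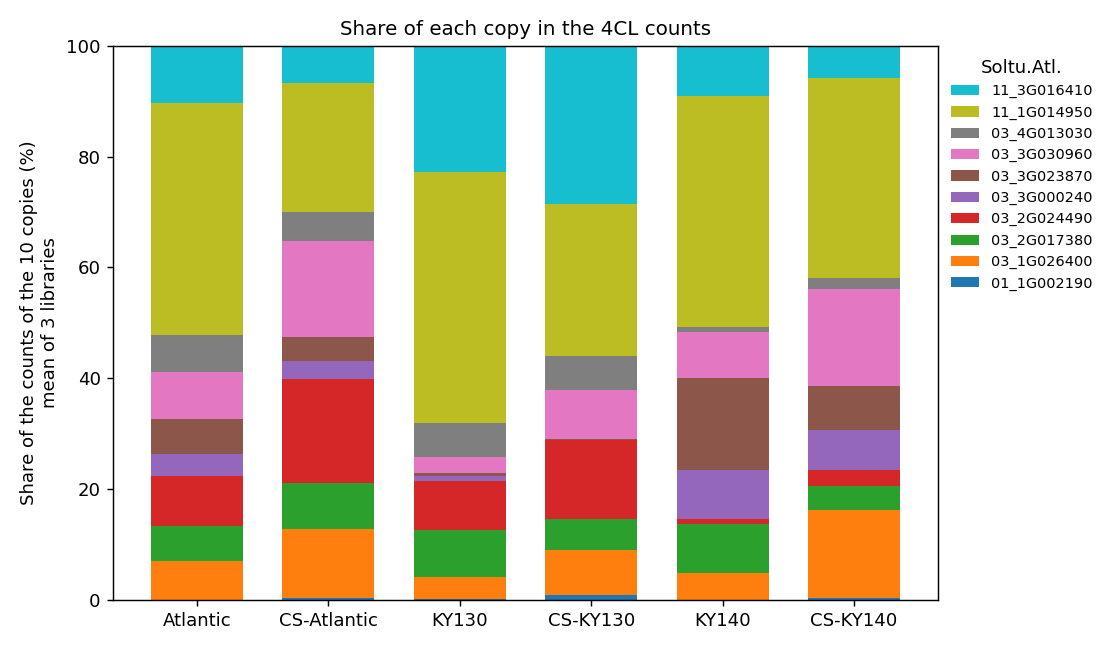
Mean share (%, y axis, 3 libraries per bar) of each copy in the counts of the 10 4CL copies, by group (x axis). Soltu.Atl.11_1G014950 (olive) takes 41.7 to 45.4% at 25°C and 23.4 to 36.0% after cold, Soltu.Atl.11_3G016410 (cyan) is widest in KY130 and CS-KY130, and Soltu.Atl.03_2G024490 (red) is narrowest in KY140 and CS-KY140.

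The copies that made up most of the higher mean sum after cold stood in a different order in each cultivar, and also in single libraries within each. In Atlantic, the sum was 446 CPM higher, of which Soltu.Atl.03_2G024490 made up 23.0%, St4CL 20.9%, Soltu.Atl.11_1G014950 15.7% and Soltu.Atl.03_1G026400 14.7%. In KY140, it was 341 CPM higher, of which Soltu.Atl.11_1G014950 made up 33.2%, St4CL 22.8% and Soltu.Atl.03_1G026400 21.8%, while Soltu.Atl.03_2G024490 made up 4.01%. In KY130, it was 166 CPM higher, of which Soltu.Atl.11_3G016410 made up 36.9%, Soltu.Atl.03_2G024490 21.7%, St4CL 17.1% and Soltu.Atl.03_1G026400 13.5%. Over the treated libraries of a cultivar, the part of St4CL ranged from 20.7 to 21.3% in Atlantic, 11.4 to 33.4% in KY140 and 2.11 to 25.4% in KY130. The part of Soltu.Atl.11_1G014950 ranged from 12.7 to 17.7% in Atlantic, 19.8 to 39.5% in KY140 and −12.3 to 45.8% in KY130. In CS-Atlantic replicate 1 it was below that of Soltu.Atl.03_1G026400, which ranged from 14.6 to 14.8% in Atlantic. In CS-KY140 replicate 1 the part of Soltu.Atl.11_1G014950 was below that of St4CL. In CS-KY130 replicate 3 it was the largest of all copies, although its part of the mean in KY130 was 2.23%. The part of Soltu.Atl.11_3G016410 in KY130 ranged from 26.7 to 46.2%, above its 3.58 to 6.50% in Atlantic and 2.64 to 7.25% in KY140.

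In KY130, the cultivar that was not used to choose the copies, no single copy passed the test of cold against 25°C. Of the 10 copies, 9 had enough counts to be tested, and 8 of these had a positive log2FC (log2 fold change), with a median of 1.26 against −0.07 over all 48717 genes tested. edgeR's quasi-likelihood test called 0 of the 9 at a Benjamini-Hochberg FDR under 0.05 and a |log2FC| of at least 1, criteria that 0.928% of all genes tested passed. At an unadjusted p under 0.05, 4 of the 9 copies were higher, against 6.94% of all genes. These were Soltu.Atl.03_2G024490, Soltu.Atl.03_1G026400, Soltu.Atl.11_3G016410 and St4CL. DESeq2 called 4 copies higher and 0 lower, where it called 3.4% of all genes higher. Every CS-KY130 library was above every KY130 library for 4 of the 9 copies, a separation found in 10.1% of all genes tested. These 4 were Soltu.Atl.03_2G024490, Soltu.Atl.03_4G013030, Soltu.Atl.03_1G026400 and Soltu.Atl.11_3G016410. Without the filter on low counts edgeR also called 4 copies higher, against 1.59% of all genes, and without any 1 library it called 0 with the filter. The copies were chosen for cold responses in 2 other cultivars and may share reads. They are thus not 9 separate observations, and the excess over the shares of all genes was not tested. CS-KY130 replicate 3, with the most genes detected of its group, was the lowest treated library for St4CL, Soltu.Atl.03_2G024490, Soltu.Atl.03_1G026400 and Soltu.Atl.11_3G016410 and the highest for Soltu.Atl.11_1G014950. Without it, St4CL had a log2FC of 3.12 (adjusted p = 0.0606 by edgeR) and Soltu.Atl.03_2G024490 one of 1.88 (adjusted p = 0.0533 by edgeR). These were the smallest adjusted p values of the 2 copies when 1 library was left out. Without any other library, the edgeR adjusted p was 0.181 to 0.528 for St4CL and 0.24 to 0.397 for Soltu.Atl.03_2G024490.

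In Atlantic and KY140, whose cold responses served to choose the copies, the same counts are a description and no test. edgeR called 7 of 9 tested copies higher in Atlantic, beside 5.79% of all genes, and 1 of 9 in KY140, beside 0.886%. None was called lower in either cultivar. The spread between replicates in the edgeR fit, as a common coefficient of variation, was 56.1% in Atlantic, 82.6% in KY140 and 81% in KY130. The numbers called depend on this spread as well as on the size of the responses, and its part was not tested. Treated libraries were all above untreated ones for 9 of the 9 copies in Atlantic, beside 14.4% of all genes, and for 8 of 9 in KY140, beside 13.3%. All 9 tested copies had a positive log2FC in both, with a median of 1.49 in Atlantic and 1.32 in KY140. Whether the response differed between cultivars was not tested, because the choice of the copies used 2 of the 3 responses.

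**Figure D3:**
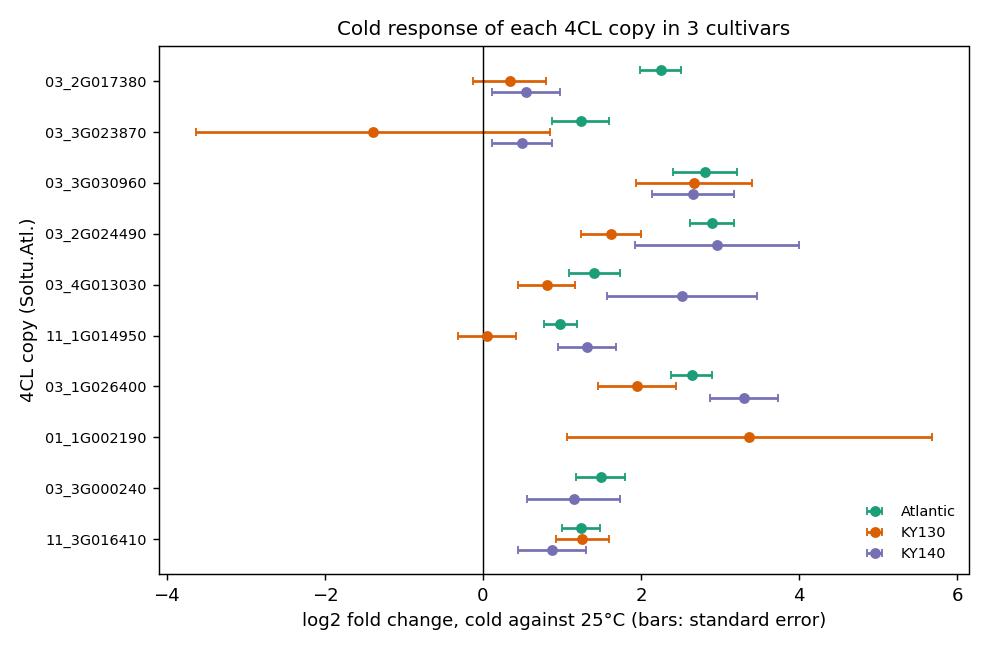
log2FC of cold against 25°C (x axis) for each 4CL copy (y axis) in Atlantic, KY130 and KY140, with bars for the standard error; a copy that was not tested in a cultivar has no point there. Points lie right of 0 in every case but Soltu.Atl.03_3G023870 in KY130, whose bar spans 0.

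St4CL, Soltu.Atl.03_1G026400 and Soltu.Atl.03_2G024490 had the largest cold responses of the chromosome 3 copies in Atlantic. St4CL was at 23.1, 6.44 and 19.3 CPM in Atlantic and at 106, 129 and 94.5 CPM in CS-Atlantic. It was at 17.0, 17.9 and 8.21 CPM in KY140 and at 92.4, 39.5 and 144.5 CPM in CS-KY140. In both cultivars the groups were apart, with a log2FC of 2.81 (standard error 0.41) in Atlantic and 2.66 (0.52) in KY140. In KY130 it was at 2.85, 9.04 and 3.96 CPM, and in CS-KY130 at 43.1, 50.6 and 7.63 CPM. Here the groups overlapped, since CS-KY130 replicate 3 was below KY130 replicate 2, and the log2FC was 2.67 (standard error 0.73, edgeR adjusted p = 0.168). The CS-KY130 and CS-KY140 libraries overlapped, while all CS-Atlantic libraries were above those of CS-KY130.

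Soltu.Atl.03_1G026400 was the copy closest to St4CL in its profile over the libraries. It was at 12.8, 9.78 and 16.8 CPM in Atlantic and at 75.7, 92.4 and 68.8 CPM in CS-Atlantic. It was at 10.6, 7.82 and 5.90 CPM in KY140 and at 55.1, 69.7 and 122 CPM in CS-KY140, where the log2FC of 3.30 (standard error 0.43) was the largest of the 9 tested copies. It was the 1 copy called in KY140, and without KY140 replicate 2 or replicate 3 none of the copies was called there. Calls over all genes fell as well, from 425 higher and 76 lower to 176 and 27 without replicate 2. They were 124 and 17 without replicate 3. In KY130 Soltu.Atl.03_1G026400 was at 9.11, 4.24 and 10.1 CPM and in CS-KY130 at 42.0, 31.8 and 17.1 CPM. These groups were apart, with a log2FC of 1.95 (standard error 0.49, edgeR adjusted p = 0.136, DESeq2 adjusted p = 0.0139). The joint edgeR fit of all 18 libraries called it (adjusted p = 0.0366) and no other copy in KY130, where it called 0.798% of all genes higher.

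Soltu.Atl.03_2G024490 had a strong response in Atlantic and few counts in KY140. It was at 10.9, 16.6 and 22.2 CPM in Atlantic and at 119.6, 137 and 101 CPM in CS-Atlantic, a log2FC of 2.90 (standard error 0.28). In KY130 it was at 18.6, 17.4 and 15.9 CPM, and in CS-KY130 at 78.6, 52.6 and 29.0 CPM. All 3 treated libraries were above the untreated ones, with a log2FC of 1.62 (standard error 0.38, edgeR adjusted p = 0.112, DESeq2 adjusted p = 0.0112). In KY140 it had 3, 58 and 10 counts, or 0.236, 5.16 and 0.797 CPM. In CS-KY140 it was at 11.6, 9.24 and 26.3 CPM, so that the treated level in KY140 was near the untreated level of the other cultivars. The log2FC in KY140 was 2.96 (standard error 1.04), from untreated libraries with as few as 3 counts.

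Soltu.Atl.03_4G013030 was scarce in the same cultivar. It was at 13.5, 7.58 and 17.5 CPM in Atlantic and at 13.1, 10.8 and 12.7 CPM in KY130, and its 4, 38 and 16 counts in KY140 came to 0.315, 3.38 and 1.28 CPM. The KY140 libraries were below all others at 25°C. For both scarce copies KY140 replicate 2 had the highest value of the untreated KY140 libraries. That library also had the most genes with counts of its group, 65787 against 45305 and 53368, and the part of this in the 2 copies was not tested. After cold Soltu.Atl.03_4G013030 was at 31.6, 35.7 and 31.1 CPM in CS-Atlantic, 17.8, 24.3 and 22.6 CPM in CS-KY130 and 7.40, 12.5 and 8.48 CPM in CS-KY140. In each cultivar the cold-stressed libraries lay above those at 25°C. The log2FC was 1.41 (standard error 0.32) in Atlantic, 2.52 (standard error 0.95) in KY140 and 0.81 (standard error 0.36, edgeR adjusted p = 0.468) in KY130.

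Another pair of chromosome 3 copies, Soltu.Atl.03_3G023870 and Soltu.Atl.03_3G000240, had their lowest mean levels in KY130 and CS-KY130. Soltu.Atl.03_3G023870 was at 13.5, 6.97 and 16.0 CPM in Atlantic and at 32.4, 28.6 and 22.9 CPM in KY140, the highest untreated level of the 3 cultivars. In KY130 it had 21, 0 and 26 counts, and in CS-KY130 0, 0 and 16 counts. Its level was 24.7, 36.6 and 21.5 CPM in CS-Atlantic and 42.4, 25.8 and 52.8 CPM in CS-KY140, where treated and untreated libraries overlapped. Soltu.Atl.03_3G000240 was at 6.38, 8.19 and 7.31 CPM in Atlantic and at 25.0, 19.0 and 15.5 CPM in CS-Atlantic. It was at 4.09, 16.8 and 25.4 CPM in KY140 and at 25.9, 38.5 and 40.7 CPM in CS-KY140, where the groups almost met. In KY130 it had 3, 11 and 62 counts, and in CS-KY130 0, 0 and 3 counts, too few for the test. KY130 replicate 3, at 4.63 CPM, was above KY140 replicate 1. The 2 CS-KY130 libraries without a count of either copy had 50417 and 56550 genes with counts, against 72029 in replicate 3, and the part of this was not tested. A count of 0 allows up to 3 counts of each of the 2 copies, by counting error alone.

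The chromosome 11 copies together held a mean of 52.1% of the 4CL counts in Atlantic at 25°C, 68.1% in KY130 and 50.8% in KY140. Soltu.Atl.11_1G014950 was at 81.7, 61.6 and 90.3 CPM in Atlantic and at 131.5, 174 and 138 CPM in CS-Atlantic, without overlap and with a log2FC of 0.98 (standard error 0.21). It was at 54.1, 103 and 64.3 CPM in KY140 and at 120.0, 161 and 279.7 CPM in CS-KY140, a log2FC of 1.32 (standard error 0.37). In KY130 it was at 103, 57.2 and 111.5 CPM and in CS-KY130 at 65.0, 76.5 and 142 CPM. These groups overlapped, and the log2FC was 0.05 (standard error 0.37, edgeR adjusted p = 0.984). Without CS-KY130 replicate 3 it was −0.41, and the adjusted p was 0.626 by edgeR.

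Soltu.Atl.11_3G016410 was highest in KY130. It was at 39.4, 61.1 and 30.3 CPM in KY130 and at 115, 126 and 73.4 CPM in CS-KY130, without overlap. The log2FC in KY130 was 1.26 (standard error 0.34, edgeR adjusted p = 0.161, DESeq2 adjusted p = 0.0316). It was at 17.0, 22.4 and 15.0 CPM in Atlantic, 45.5, 37.6 and 41.3 CPM in CS-Atlantic, 16.2, 9.95 and 19.0 CPM in KY140, and 32.0, 20.9 and 32.9 CPM in CS-KY140. All CS-KY130 libraries were above those of the other 2 cultivars after cold.

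In KY130, the summed level of the chromosome 11 pair varied less between replicates than either copy did. The sum was 134 ± 13.9 CPM (SD, n = 3) in KY130, where Soltu.Atl.11_1G014950 had an SD of 29.3 CPM and Soltu.Atl.11_3G016410 one of 15.8 CPM. In CS-KY130 it was 199 ± 17.6 CPM, with SDs of 41.4 and 27.8 CPM for the single copies. The sum ranged from 118 to 143 CPM untreated and from 180.4 to 215 CPM after cold, without overlap. In KY130 the replicates stood in opposite order for the 2 copies, and in CS-KY130 replicate 3 had the most of Soltu.Atl.11_1G014950 and the least of Soltu.Atl.11_3G016410. In the other cultivars this did not hold. The SD of the pair, 10.9 CPM in Atlantic, 19.3 CPM in CS-Atlantic and 21.6 CPM in KY140, lay between those of the single copies, and in CS-KY140 the SD of 85.5 CPM was above both. Whether reads were divided differently between the 2 copies was not tested.

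The 2 remaining copies differed from each other in how much they were expressed. Soltu.Atl.03_2G017380 was at 9.78, 10.8 and 14.1 CPM in Atlantic and at 43.7, 66.2 and 49.1 CPM in CS-Atlantic, a log2FC of 2.25 (standard error 0.26). It was at 20.8, 15.9 and 13.5 CPM in KY130 and at 35.8, 13.8 and 14.3 CPM in CS-KY130, where only replicate 1 lay above the untreated libraries (log2FC 0.34, standard error 0.46, edgeR adjusted p = 0.903). In KY140 it was at 14.7, 16.8 and 13.6 CPM and in CS-KY140 at 17.0, 17.3 and 33.2 CPM, a log2FC of 0.55 (standard error 0.43). Its untreated levels thus lay in 1 narrow band in the 3 cultivars, and CS-Atlantic lay above every other library.

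Soltu.Atl.01_1G002190, the only copy on chromosome 1, was detected in 6 of the 18 libraries. It had 44, 12 and 0 counts in CS-Atlantic, 95, 0 and 12 counts in CS-KY130, 42, 0 and 0 counts in CS-KY140 and 11, 0 and 0 counts in KY130. The highest count of each treated group was in replicate 1. The detection in CS-KY140 rested on that library alone, and no fold difference is given. In KY130 the test gave a log2FC of 3.37 with a standard error of 2.31 (adjusted p = 0.726 by edgeR), and at these counts a change was not detectable.

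**Figure D4:**
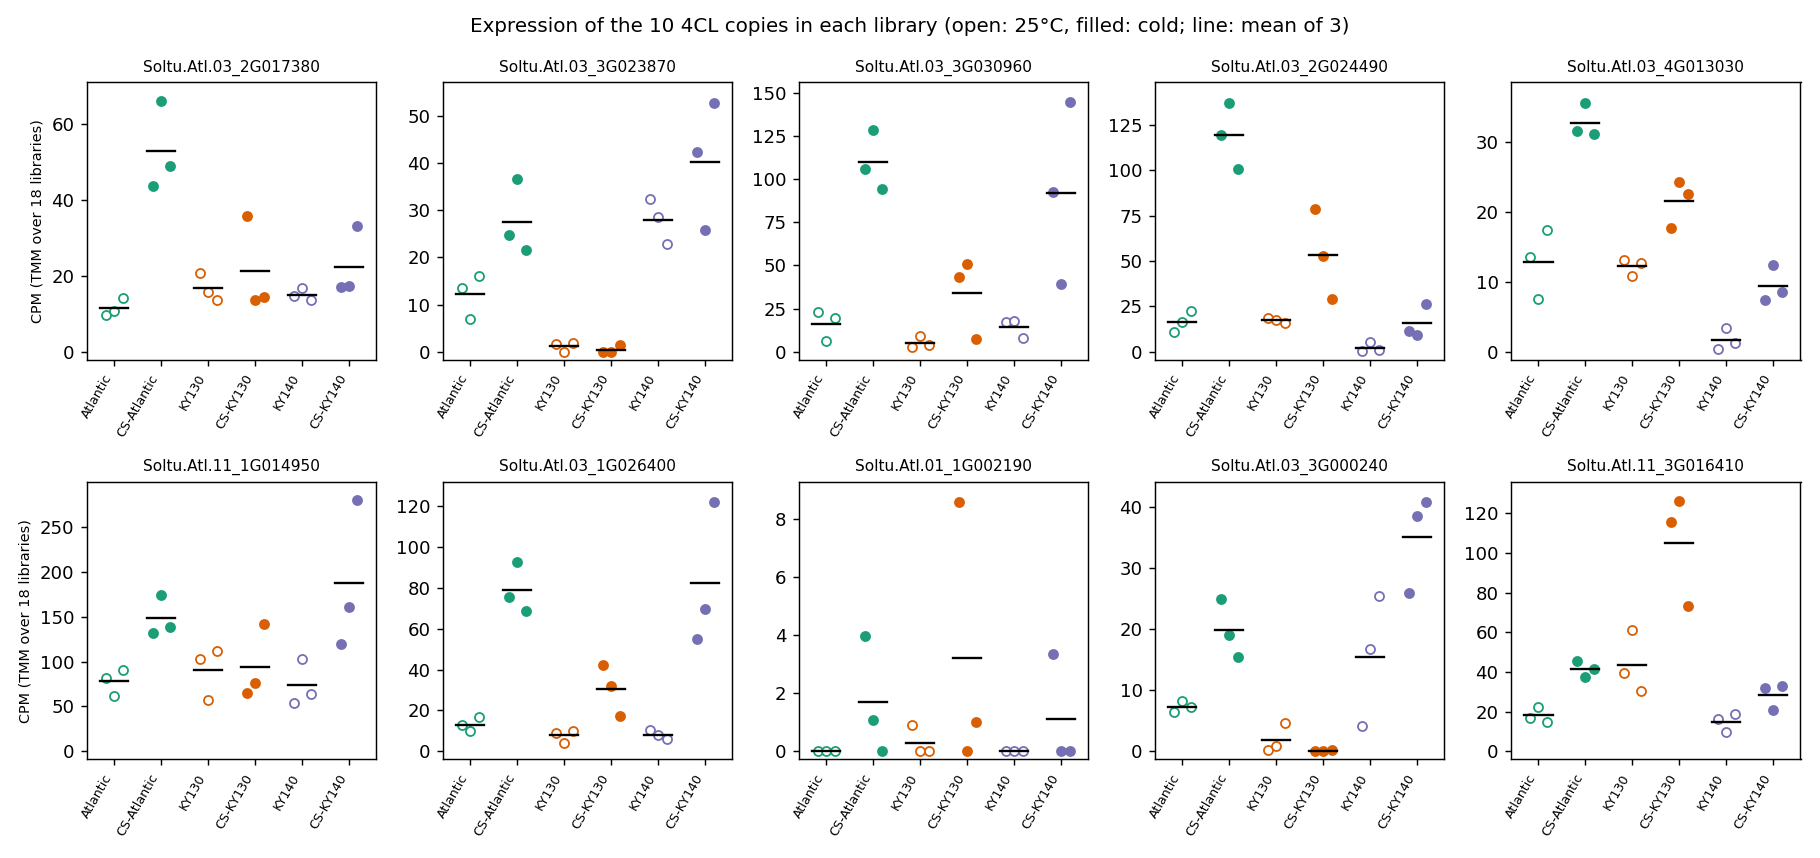
CPM of each 4CL copy (y axis, linear, own scale per panel) in every library by group (x axis). Open points are libraries at 25°C, filled points cold-stressed libraries and lines means of 3. Soltu.Atl.03_2G024490 and Soltu.Atl.03_4G013030 are lowest in KY140, Soltu.Atl.03_3G023870 is lowest in KY130 and CS-KY130, Soltu.Atl.03_3G000240 reaches 4.63 CPM in 1 KY130 library and is at most 0.257 CPM in CS-KY130, and Soltu.Atl.11_3G016410 is highest in CS-KY130.

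At 25°C, the cultivars were compared in 1 edgeR fit of the 9 untreated libraries, in which 9 of the 10 copies were tested. The untreated Atlantic and KY140 libraries also entered the choice of the copies. Between KY130 and Atlantic, 2 of the 9 copies passed, beside 25.2% of all 62787 genes tested. Soltu.Atl.03_3G023870 was lower in KY130 (log2FC −3.31, standard error 0.96, edgeR adjusted p = 0.0288) and Soltu.Atl.11_3G016410 higher (log2FC 1.25, standard error 0.39, edgeR adjusted p = 0.0414). Both calls were lost when any of several libraries was left out. Without Atlantic replicate 1, 2 or 3 or KY130 replicate 1, 0 copies passed, and without KY130 replicate 2 only 1 did. Calls over all genes fell as well when 1 library was left out. They went from 4044 higher and 11786 lower to 1782 to 2502 higher and 7716 to 8910 lower. With the replicate number as a block, Soltu.Atl.11_3G016410 was no longer called.

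Between KY140 and Atlantic, 2 of the 9 copies passed, beside 35.3% of all genes, and both were lower in KY140. Soltu.Atl.03_2G024490 had a log2FC of −3.01 (standard error 0.91, edgeR adjusted p = 0.026) and Soltu.Atl.03_4G013030 one of −2.96 (standard error 0.79, edgeR adjusted p = 0.0154). Without Atlantic replicate 3 neither passed, and without Atlantic replicate 2 or KY140 replicate 3 only 1 did. Calls over all genes fell as well, from 6147 higher and 16014 lower to 3885 and 11925 without Atlantic replicate 3. They were 3937 and 12573 without Atlantic replicate 2, and 5281 and 13867 without KY140 replicate 3. Without KY140 replicate 2, the untreated KY140 library with the most counts of both copies, the log2FC was −4.99 and −4.01.

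Between KY130 and KY140, 5 of the 9 copies passed, beside 43.9% of all genes. Soltu.Atl.03_2G024490 (log2FC 3.06, standard error 0.91), Soltu.Atl.03_4G013030 (2.88, standard error 0.79) and Soltu.Atl.11_3G016410 (1.53, standard error 0.40) were higher in KY130, and their edgeR adjusted p values were 0.0201, 0.0138 and 0.0111. Soltu.Atl.03_3G023870 (log2FC −4.50, standard error 1.01) and Soltu.Atl.03_3G000240 (−3.0, standard error 1.02) were lower in KY130, where the edgeR adjusted p values were 0.00503 and 0.0358. DESeq2 also called 3 higher and 2 lower, beside 48% of all genes. Without KY140 replicate 3, 3 copies passed, and calls over all genes went from 15426 higher and 12107 lower to 13521 and 11374. The share of the tested copies that passed was thus 22.2% in each comparison with Atlantic, below that of all genes, and 55.6% between KY130 and KY140, with 5 copies against an overall share of 43.9%. St4CL, Soltu.Atl.11_1G014950, Soltu.Atl.03_1G026400 and Soltu.Atl.03_2G017380 passed in none of them.

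Other genes of the phenylpropanoid pathway that the study names by identifier were StPAL, which opens the pathway, 3 copies of StCYP73A, which makes p-coumaric acid, the substrate of 4CL, and StCSE, an esterase of lignin synthesis. The study chose all 5 on the Atlantic and KY140 libraries. In KY130, where all 5 were tested, 0 of them were called higher and 1 lower by edgeR, beside 0.844% and 0.0842% of all genes. StCSE (Soltu.Atl.04_4G005370) fell from 215, 188.5 and 254 CPM to 79.0, 72.0 and 85.0 CPM after cold (log2FC −1.48, standard error 0.23, edgeR adjusted p = 0.0215). The StCYP73A copy Soltu.Atl.06_4G021450 had the smallest unadjusted p of the other 4, with a log2FC of 0.93 (standard error 0.37, edgeR adjusted p = 0.382), and StPAL (Soltu.Atl.09_2G005110) had one of 1.28 (standard error 0.72, edgeR adjusted p = 0.632). In Atlantic 4 of the 5 were called higher and 1 lower, beside 5.79% and 2.31% of all genes. In KY140 none was called, beside 0.886% and 0.158%. There the treated libraries were all above the untreated ones for StPAL and the 3 StCYP73A copies, beside 13.3% of all genes. They were all below for StCSE, beside 7.51%. The log2FC in KY140 was 1.82 (standard error 0.45) for StPAL and −1.63 (0.32) for StCSE. It was 2.17 (0.64) for Soltu.Atl.06_4G021440, 1.90 (0.50) for Soltu.Atl.06_4G021450 and 1.72 (0.54) for Soltu.Atl.06_1G015640. The values of both cultivars are a description, since their libraries served to choose the genes. At 25°C, 1 of the 3 StCYP73A copies was called between KY130 and Atlantic, where 25.2% of all genes were called, and 2 between KY140 and Atlantic, where 35.3% were. Soltu.Atl.06_1G015640 was lower in KY130 (log2FC −2.32, standard error 0.55, edgeR adjusted p = 0.0129) and was not called in KY140 (log2FC 0.35, standard error 0.53, edgeR adjusted p = 0.651). Soltu.Atl.06_4G021440 (log2FC −1.94, edgeR adjusted p = 0.0191) and Soltu.Atl.06_4G021450 (log2FC −2.64, edgeR adjusted p = 0.00193) were lower in KY140. Neither was called in KY130, with log2FC of −0.18 and 0.81 (edgeR adjusted p = 0.862 and 0.216). StCSE was higher in KY140 than in Atlantic (log2FC 2.19, standard error 0.38, edgeR adjusted p = 0.00192). It was not called between KY130 and Atlantic (log2FC 1.05, standard error 0.37, edgeR adjusted p = 0.0621). Between KY130 and KY140, 2 of the 5 genes were called higher in KY130 and 2 lower, beside 24.6% and 19.3% of all genes.

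Among 33186 genes with a mean of at least 5 CPM, the profile most like that of St4CL over the 18 libraries belonged to Soltu.Atl.02_2G021670, and the next to Soltu.Atl.S119160. Likeness was the mean absolute difference of log2(CPM + 1) after centring each gene on its own mean, which was 0.413 and 0.447 for these genes. Of the other 4CL copies, Soltu.Atl.03_1G026400 came nearest with 0.628, at rank 24, and Soltu.Atl.03_2G017380 followed with 1.03, at rank 760. Soltu.Atl.11_3G016410 was the farthest of those ranked, with 1.57, at rank 11282. Soltu.Atl.02_2G021670 was at 5.92 ± 0.475 CPM in Atlantic (SD, n = 3), 24.6 ± 5.66 in CS-Atlantic, 1.27 ± 1.24 in KY130, 7.37 ± 6.36 in CS-KY130, 6.93 ± 4.68 in KY140 and 46.2 ± 36.4 in CS-KY140. The files give no description of either gene.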

How the data were processed

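The authors sequenced leaf RNA as strand-specific poly(A) libraries and deposited a table of raw read counts per gene, with the identifiers of the Atlantic annotation. For the aligner, the counter, their versions and the use of strand in counting: not given in the sources used here. The counts were analysed as deposited. Genes were filtered with filterByExpr at a minimum count of 10, normalised by TMM and tested with edgeR 4.0.16 (glmQLFit and glmQLFTest, R 4.3.3), with Benjamini-Hochberg adjustment over all genes tested. Cold was compared with 25°C in a fit of the 6 libraries of each cultivar, and the cultivars in a fit of the 9 untreated libraries. A gene was called at an FDR under 0.05 and a |log2FC| of at least 1, and standard errors are |log2FC| divided by the square root of F. Alternatives were DESeq2 1.42.0, no filter, a joint fit of 18 libraries, other scalings, the replicate number as a block and leaving out each library. The scripts were tested on simulated data. P-values measure the spread between 3 libraries a group, and counting error and floors cover counting alone.

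The named genes were the 10 4CL copies, 5 phenylpropanoid genes that the study names by identifier, and the 2 genes whose profile was nearest to St4CL. The members and lists were chosen with earlier results of these data known. A second file that repeats the identifiers as names was not used, and a RefSeq gene table matched 0 of the identifiers.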

Additional observations from a re-analysis of the deposited data

How the results depend on the processing

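No value changed direction while called. Of the 9 tested copies, the number called for cold in KY130 was 0, but 4 with DESeq2, 4 without the filter on low counts and 1 in the joint fit, and 0 to 0 when each library was left out. In Atlantic it was 7, but 10 with DESeq2, which also tested Soltu.Atl.01_1G002190, 9 without the filter and 4 in the joint fit, and 4 to 7 when each library was left out, lowest without Atlantic replicate 1. In KY140 it was 1, but 3 with DESeq2, 4 without the filter and 4 in the joint fit, and 0 to 2 when each library was left out. At 25°C the number between KY130 and Atlantic was 2, but 1 without the filter, and 0 to 2 when each library was left out. Of all genes, 25.2% were called in this comparison, and 15% without the filter. When each library was left out, the number was 0 to 2 between KY140 and Atlantic and 3 to 5 between KY130 and KY140. Over all genes tested, 411 were called higher and 41 lower for cold in KY130 (0.844% and 0.0842%). DESeq2 gave 1881 and 523 (3.4% and 0.944%) and no filter 1406 and 289 (1.59% and 0.326%). The joint fit gave 591 and 125 (0.798% and 0.169%). In Atlantic they were 3347 and 1332 (5.79% and 2.31%), and with DESeq2 4747 and 2098 (7.15% and 3.16%). Without the filter they were 3855 and 1361 (4.09% and 1.44%), and in the joint fit 746 and 216 (1.01% and 0.292%). In KY140 they were 425 and 76 (0.886% and 0.158%), and with DESeq2 2115 and 470 (3.84% and 0.853%). Without the filter they were 1912 and 427 (2.24% and 0.5%), and in the joint fit 1337 and 200 (1.81% and 0.27%). Leaving out 1 library gave 124 to 351 genes higher after cold in KY130, 1974 to 2670 in Atlantic and 94 to 590 in KY140. With the replicate number as a block, the numbers of copies called for cold were 0 in KY130, 6 in Atlantic and 1 in KY140, and at 25°C 1, 2 and 5. Over all genes the block gave 349 higher and 29 lower in KY130, 2598 and 791 in Atlantic and 270 and 47 in KY140. At 25°C it gave 2247 and 8511 between KY130 and Atlantic and 4253 and 12182 between KY140 and Atlantic. Between KY130 and KY140 it gave 12447 and 9735. Deviations of same-numbered libraries were at most weakly related (r from −0.075 to 0.2 across genes within a cultivar). With 3 libraries a group, these values cannot settle whether the numbers pair the samples. The causes of these differences were not tested. Low counts limit Soltu.Atl.01_1G002190 in all cultivars and Soltu.Atl.03_3G023870 and Soltu.Atl.03_3G000240 in KY130. They also limit Soltu.Atl.03_2G024490 and Soltu.Atl.03_4G013030 in untreated KY140.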
